A study of Mus musculus with 2 samples.

Results

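The clustered protocadherins are cadherin-like adhesion proteins of the cell surface, encoded by the neighbouring alpha, beta and gamma gene clusters. In the alpha and gamma clusters each gene supplies 1 large variable exon with its own promoter, which is spliced to constant exons that the whole cluster shares, so that the choice of promoter decides which extracellular domain is made while the cytoplasmic end stays the same. The beta genes have no constant exons. Single neurons are known to use different combinations of these promoters, with the C-type genes at the downstream end of the alpha and gamma clusters used more evenly, and cell-cell recognition in the nervous system is the function best described for the family. The members considered here are the protein-coding genes named Pcdha, Pcdhb or Pcdhg followed by a number, or by a, b or c and a number, in the GENCODE M21 annotation. There are 57 such genes among the 43346 mouse genes and the 21474 protein-coding genes of the deposited tables: 14 alpha, 22 beta and 21 gamma. They carry 87 transcripts in the tables (24 alpha, 26 beta and 37 gamma). Pcdhgb8, which this annotation calls a polymorphic pseudogene, is not among them, and stood at 0.67 TPM in replicate 1 and 0.56 TPM in replicate 2. All 57 genes lie on the plus strand of chromosome 18, at chr18:36930184-37841873 on GRCm38, a span of 911690 nt. The alpha cluster comes first (chr18:36930184-37187661), then beta (chr18:37264938-37524479), then gamma (chr18:37661793-37841873).

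The libraries are total RNA-seq of whole kidneys from healthy B6NCrl mouse embryos at embryonic day 16.5. There is 1 group of 2 biological replicates, each a pool of male and female embryos. Replicate 2 pooled 41 embryos; for replicate 1 the sources used here give no number. Both pools carry the same donor label. With no second tissue, age or treatment in the labels, the values below describe this tissue, and a ratio between the pools has no replicate check. An exact two-sided test on 2 libraries cannot go below p = 0.5, so no p is given.

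Expected counts on mouse genes summed to 34261328 in replicate 1 and 37900132 in replicate 2, and 1 TPM (a level scaled to transcript length and library) on an effective length of 5000 nt corresponds to 115 and 125 counts. All 32 marker genes of nephron progenitors, podocytes, proximal tubule, collecting duct, stroma and endothelium reached 1 TPM in both libraries, with Cited1 of the nephron progenitors at 127 ± 10.2 TPM and Wt1 of the podocytes at 110 ± 8.38 TPM (mean ± SD, n = 2, as for all such values below). Markers of other cells that a dissected kidney can hold were measured too. Of 10 neuron markers 7 reached 1 TPM in both libraries, against 62.2% of all protein-coding genes. The 10 together summed to 65.9 TPM in replicate 1 and 43.6 TPM in replicate 2. The 6 chromaffin markers of the adrenal medulla summed to 53.0 and 32.3 TPM, and the 7 glia markers to 23.0 and 18.7 TPM. In such a bulk sample, fewer cells of a type and less RNA per cell cannot be told apart.

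The gamma cluster held most of the signal in both libraries. The summed level of the 14 alpha genes was 1.06 TPM in replicate 1 and 0.71 TPM in replicate 2. The 22 beta genes summed to 20.98 and 21.92 TPM, and the 21 gamma genes to 135 and 128 TPM. The clusters keep the same order in each library and their ranges do not overlap. As shares of all clustered protocadherin TPM, alpha took 0.574% ± 0.146, beta 14.0% ± 0.801 and gamma 85.5% ± 0.655. The log2 ratio of the sums, alpha over beta, was -4.31 in replicate 1 and -4.95 in replicate 2; alpha over gamma was -6.99 and -7.50, and beta over gamma -2.68 and -2.55. As deposited, the gamma sum is dominated by a pair of its genes, so the level of a typical member differs less. For 1 of the pair, Pcdhgc4, most of the value rests on a short transcript model described below. On the log2(mean TPM + 0.1) scale, the median alpha gene lay 2.54 units below the median beta gene (difference -2.54) and the difference was -3.73 for alpha minus gamma and -1.19 for beta minus gamma.

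Detection divided the clusters in the same order. A member was counted as detected at 1 TPM or more in both libraries, which 26 of 57 members (45.6%) and 62.2% of all protein-coding genes reached. No alpha gene reached it, against 6 of 22 beta genes and 20 of 21 gamma genes. The deposited tables also give a lower and an upper bound for each TPM value, whose level is not stated in the files. A lower bound of 0.1 TPM or more in both libraries was found for 0 of 14 alpha, 20 of 22 beta and 21 of 21 gamma genes, and for 71.2% of protein-coding genes. The counts behind these levels differ as much: the alpha cluster holds 123 and 92.8 expected counts in replicates 1 and 2 over all its genes, the beta cluster 1938 and 2133, and the gamma cluster 11719 and 11652. Floors and intervals in this text cover counting error only.

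**Figure D1:**
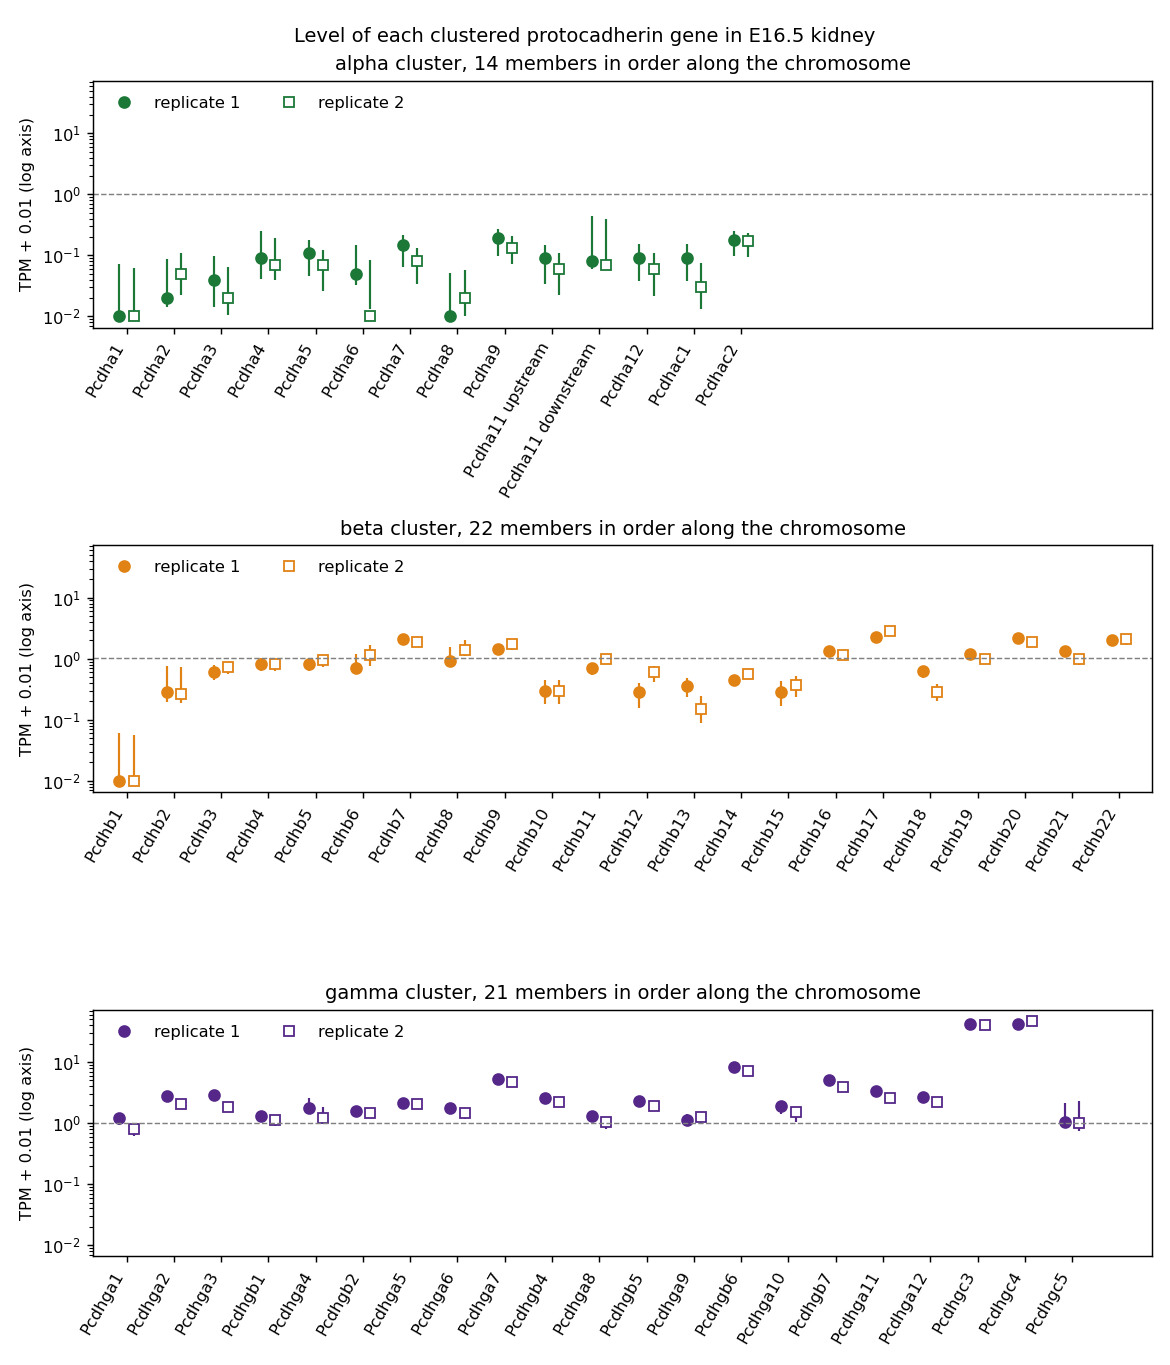
Each symbol is the TPM of 1 gene in 1 library plus 0.01, on a log axis (filled circles replicate 1, open squares replicate 2), the vertical lines are the deposited bounds and the dashed line marks 1 TPM. The alpha genes all sit below the line, the beta genes straddle it, and Pcdhgc3 and Pcdhgc4 stand at 39.9 TPM or above in both libraries while the other gamma genes lie near or somewhat above the line.

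Among the alpha genes the highest levels were those of Pcdhac2, Pcdha9, Pcdha7 and Pcdha5. Pcdhac2, a C-type gene with the last alpha promoter, stood at 0.17 TPM in replicate 1 and 0.16 TPM in replicate 2, from 22.1 and 22.4 expected counts. Pcdha9 had 0.18 and 0.12 TPM. These are the only alpha genes with at least 10 expected counts in both libraries. Pcdha7 (0.105 ± 0.0495 TPM) and Pcdha5 (0.080 ± 0.0283 TPM) followed. The other C-type gene of the cluster, Pcdhac1, had 0.08 TPM and 9.68 counts in replicate 1, against 0.02 TPM and 2.94 counts in replicate 2. At the low end, Pcdha8 had 0 and 1.48 counts and Pcdha1, the first gene of the locus, had 0 counts in both libraries. The deposited upper bounds of Pcdha1, which include reads that could be assigned to it from shared exons, are 0.0611 TPM in replicate 1 and 0.0517 TPM in replicate 2. The 7 other alpha genes lay between 0.020 and 0.070 TPM on average. The order of the alpha genes is loose: the bounds of every alpha gene overlapped between the libraries, and Pcdhac2 and Pcdha9 change places between them.

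The annotation gives 2 alpha genes the same symbol, Pcdha11. The upstream one (ENSMUSG00000007440, starting at 37005203) stood at 0.065 ± 0.0212 TPM and the downstream one (ENSMUSG00000102206, starting at 37010712) at 0.065 ± 0.00707 TPM. The RefSeq table places Pcdha10 at 37005320 and Pcdha11 at 37010858. They are kept apart here by their identifiers.

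The beta genes formed a graded series with no member far above the rest. Pcdhb17 led with 2.28 TPM in replicate 1 and 2.87 TPM in replicate 2, from 239 and 326 counts. Pcdhb22 (2.06 ± 0.0141 TPM), Pcdhb7 (2.02 ± 0.163 TPM) and Pcdhb20 (2.01 ± 0.219 TPM) followed. The lower bound of Pcdhb17 in replicate 2, 2.52 TPM, lies above the upper bounds of those 3 genes in that library, but in replicate 1 the bounds of all 4 overlap. Pcdhb9 and Pcdhb16 complete the 6 detected beta genes. At the low end stood Pcdhb13, with 0.35 and 0.14 TPM, and Pcdhb1, the first beta gene, with 0 counts in both libraries. A count of 0 allows Pcdhb1 up to 0.0525 TPM in replicate 1 and 0.0483 TPM in replicate 2 (3 counts). The 15 beta genes outside those named for their rank or ratio lay between 0.260 and 1.58 TPM on average, and 4 beta genes passed 1 TPM in 1 library only.

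The gamma cluster consists of 12 A-type genes, 6 B-type genes and 3 C-type genes. As deposited, the C-type genes hold 63.4% of its TPM in replicate 1 and 68.5% in replicate 2. That majority leans on 1 short model of Pcdhgc4, described below, which was given 37.8 and 43.0 TPM. Pcdhgc3, whose protein is known to bind Axin1, a scaffold of the Wnt pathway, stood at 41.6 TPM in replicate 1 and 39.9 TPM in replicate 2, from 4312 and 4415 counts. Pcdhgc4, which mice need for the survival of interneurons, stood at 42.7 and 47.0 TPM, from 2263 and 2659 counts. Together these 2 genes took 62.6% of the gamma sum in replicate 1 and 67.7% in replicate 2. The third C-type gene, Pcdhgc5, stood at 1.04 and 1.01 TPM, the second lowest mean of the cluster. In replicate 2 this includes 0.24 and 0.09 TPM on the short models Pcdhgc5-203 and Pcdhgc5-204, from 2.03 and 1.08 counts. Without them the gene stands at 1.04 and 0.68 TPM, below the detection threshold in replicate 2. The bounds of Pcdhgc4 (38.3 to 45.5 TPM) and Pcdhgc3 (38.8 to 42.3 TPM) overlap in replicate 1. In replicate 2 those of Pcdhgc4 (43.0 to 49.5 TPM) lie above those of Pcdhgc3 (36.9 to 40.7 TPM).

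The 12 A-type genes summed to 28.1 TPM in replicate 1 and 22.7 TPM in replicate 2, and the 6 B-type genes to 21.2 and 17.6 TPM. Pcdhgb6 led them with 8.36 and 7.10 TPM, and Pcdhga7 followed with 5.25 and 4.71 TPM. Their bounds do not overlap in either library. The lowest of the cluster was Pcdhga1, the most upstream gamma gene, with 1.21 TPM in replicate 1 and 0.80 TPM in replicate 2, and it is the only gamma gene that missed the detection threshold. The 15 gamma genes outside those named for rank or type lay between 1.17 and 4.47 TPM on average. Position along the cluster was only loosely related to level: Spearman's rho between the order of the genes and mean TPM was 0.464 over 14 alpha, 0.436 over 22 beta and 0.410 over 21 gamma genes, which share libraries and, in alpha and gamma, exons.

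The transcript tables show that the high value of Pcdhgc4 rests on 1 short transcript model. Pcdhgc4-203, 2272 nt long, was given 37.8 TPM in replicate 1 and 43.0 TPM in replicate 2, which is 88.5% and 91.4% of its gene. Its first exon, chr18:37815401-37815553, is 153 nt long and lies wholly inside the first exon of the full-length Pcdhgc4-201. The other 2119 nt are the gamma constant exons (chr18:37825021-37825079, chr18:37833265-37833353 and chr18:37839903-37841873), so no base of this model is absent from all other gamma transcripts. Pcdhgc4-201, which carries the whole variable exon of 2905 nt, was given 0.91 and 0.66 TPM, and Pcdhgc4-202, a retained-intron model of 3100 nt in the same place with no constant exon, 3.98 and 3.36 TPM. Without Pcdhgc4-203, Pcdhgc4 would stand at 4.89 and 4.02 TPM. Whether RNA of the short form is present was not tested, since the reads over its first exon are not part of the deposited tables.

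The leading transcript of Pcdhgc3 carries a long variable exon. Pcdhgc3-201 has a first exon of 2568 nt (chr18:37806410-37808977), which other Pcdhgc3 models cover but no other gene of the cluster does, and was given 38.9 TPM in replicate 1 and 34.6 TPM in replicate 2, 93.6% and 86.7% of the gene. The antisense entry BC037039, with 129 counts in replicate 1 and 164 counts in replicate 2, overlaps this exon, and without strand information its reads cannot be told apart there from those of Pcdhgc3. A nonsense-mediated decay model of the gene, Pcdhgc3-202, was given 2.11 and 5.20 TPM, with bounds of 0.125 to 4.02 TPM and 1.77 to 7.69 TPM that overlap. When the 4 alpha and gamma transcripts with constant exons but under 300 nt of their own are left out, an alternative chosen after the data were seen, the gamma sum is 96.8 TPM in replicate 1 and 84.9 TPM in replicate 2, and Pcdhgc3 alone takes 43.0% and 46.9% of it. The log2 ratio of the sums, beta over gamma, is then -2.08 on average in place of -2.61.

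**Figure D2:**
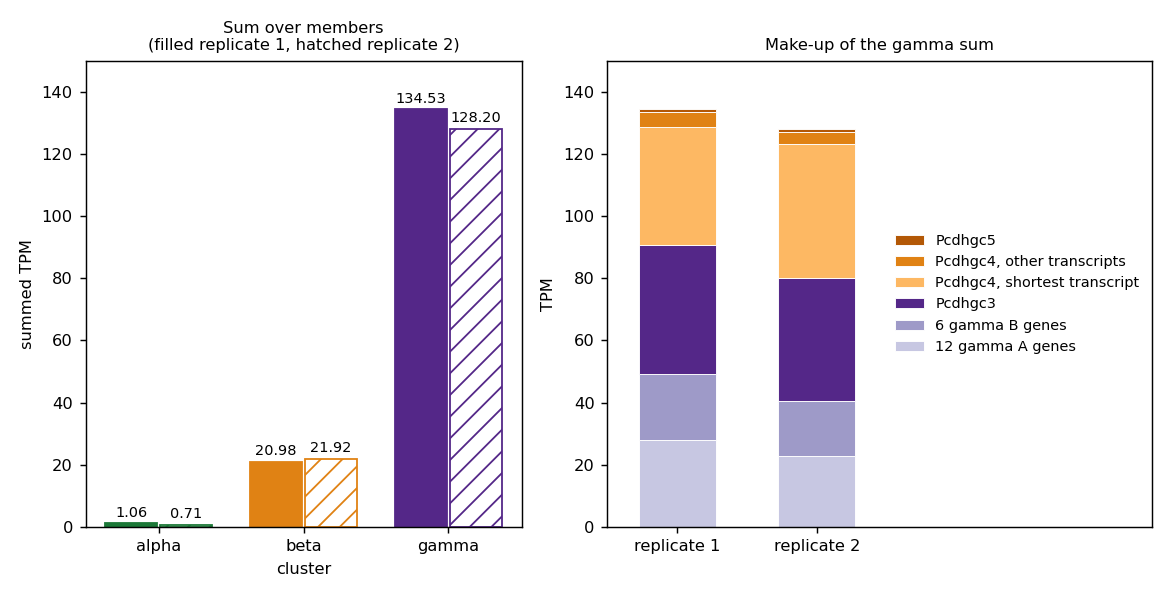
The left panel shows TPM summed over the members of each cluster in replicate 1 (filled) and replicate 2 (hatched), and the right panel divides the gamma sum of each library by gene group, with Pcdhgc4 split into its short transcript Pcdhgc4-203 and its other transcripts. Pcdhgc3 and the short Pcdhgc4 transcript fill similar parts of each bar, at 41.6 and 37.8 TPM in replicate 1 and 39.9 and 43.0 TPM in replicate 2.

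Transcripts were next grouped by whether they hold constant exons, which joins promoter choice to splicing. In the alpha cluster, transcripts with shared exons took 99.1% of the TPM in replicate 1 and 100% in replicate 2. Since 22 of the 24 alpha models have such exons, the annotation nearly sets this share. In the gamma cluster transcripts with shared exons, 26 of 37 models, took 91.1% and 93.0%. This was made up of models with a variable exon of their own (63.0% and 59.3%) and the short models (28.1% and 33.8%). The 11 gamma transcripts with no shared exon took the remaining 8.90% and 6.97%. None of the 26 beta transcripts has an exon shared by 5 or more members. The alpha constant exons are 59, 89 and 2712 nt long and the gamma ones 59, 89 and 1971 nt, and all 14 alpha and all 21 gamma genes use the first 2 of their own set.

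Which transcript led was stable for most members with several models. In the gamma cluster the same transcript led in both libraries for 9 of 12 such genes, in the beta cluster for 4 of 4, and in the alpha cluster for 1 of 5, with 2 further alpha genes lacking an estimate. Leading transcripts of single-model genes, such as Pcdhgb6-201, Pcdhb17-201, Pcdhb7-201, Pcdhb20-201, Pcdhac2-201 and Pcdha9-201, take 100% by construction. Pcdhga7-201 led with 60.6% of its gene in replicate 1 and 66.2% in replicate 2, Pcdhb22-201 with 80.3% and 76.6%, and Pcdhgc5-202 with 62.3% and 45.7%. For 3 gamma genes the leading model has shared exons in 1 library only. Pcdhga1-201, with shared exons, took 70.9% in replicate 1, and Pcdhga1-202, without them, 56.4% in replicate 2. For Pcdhga9 and Pcdhgb2 the leading model has no shared exon in replicate 1 (63.5% and 50.9%) and has them in replicate 2 (57.5% and 78.2%). In each of these 3 genes the deposited bounds of its 2 models overlap in both libraries, so which model leads is not resolved. In Pcdhga12 the same model led in both libraries, the retained-intron Pcdhga12-202, with 75.0% in replicate 1 and 60.2% in replicate 2, and it has no shared exon. In Pcdha4 and the downstream Pcdha11, under 9 counts in each library moved wholly or mostly to another model.

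The members differ in how many of their bases are their own. Of all 100-nt windows along the exons of a gene, the share found in no other gene had a median of 44.6% in alpha, 99.8% in beta and 56.4% in gamma. Windows were compared in the sense direction only, so overlap with antisense exons does not lower these shares. The lowest value in alpha was 11.6% for Pcdha4, whose variable exon is also part of the model Gm42416, and the lowest in beta was 92.3% for Pcdhb21, which overlaps Pcdhb22. The deposited posterior standard deviation of the count, given as a percent of the posterior mean, had a median of 24.7% in replicate 1 and 23.0% in replicate 2 over the 4 alpha genes with a posterior mean of at least 0.1 TPM in both libraries. Over 21 beta genes it was 0% and 0.300%, and over 21 gamma genes 5.23% and 5.25%. It is 0 in both libraries for 10 of these 21 beta genes and for none of these alpha or gamma genes. Over 17378 protein-coding genes that pass the same filter, the median is 0% in both libraries and 66.7% have a value of 0 in both. Among the 4 alpha genes, Pcdha4 (0.08 and 0.06 TPM) and the downstream Pcdha11 (0.07 and 0.06 TPM) pass by posterior mean but not by TPM. Pcdha7, with 16.9 and 8.89 counts, does not pass. The alpha medians here and for the bounds below thus rest partly on genes with 8.15 counts or fewer in each library.

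The deposited TPM bounds were wider at lower levels. Their width relative to the posterior mean had a median of 1.30 in replicate 1 and 1.34 in replicate 2 for alpha, 0.467 and 0.434 for beta, and 0.315 and 0.333 for gamma, against 0.202 and 0.193 over protein-coding genes. The beta genes have nearly unique exons and the wider bounds, at lower levels, and the gamma genes the reverse. Within gamma the narrowest bounds were those of Pcdhgc3 (0.0879 and 0.0978) and the widest those of Pcdhgc5 (0.825 and 1.11), which has 4 transcript models. A sum over a cluster does not depend on how reads in its shared exons are divided among its members, apart from the lengths of the models they are given to. These lengths differ: Pcdhgc4-203 has 2272 nt and Pcdhgc4-201 has 5024 nt. The gamma constant exons are also shared with non-members such as Pcdhgb8, Gm38182 and Gm42416, and reads given to those fall outside the gamma sum.

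**Figure D3:**
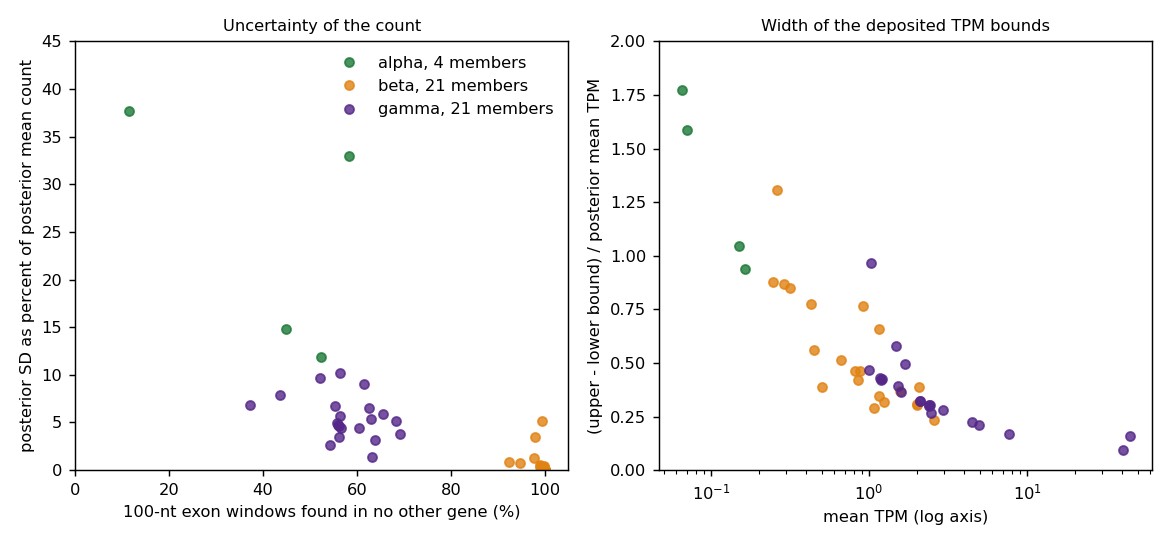
Each point is a member with a posterior mean of at least 0.1 TPM in both libraries (4 alpha, 21 beta and 21 gamma), averaged over the libraries. The left panel sets the posterior standard deviation of the count, in percent of its mean, against the percent of exon windows in no other gene. Windows were compared in the sense direction only. The right panel sets the relative width of the TPM bounds against mean TPM on a log axis. The beta genes cluster at the right end of the left panel near 0%, the gamma genes lie in the middle, and in the right panel the bounds narrow as the level increases.

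Between the pools, members with enough counts passed 2-fold about as often as all genes did. The ratio of TMM-scaled expected counts, replicate 1 over replicate 2, passed 2-fold in either direction for 1 of the 37 members with a mean of at least 1 CPM (a count scaled to library size), against 2.32% of the 15362 genes at that level. The member is Pcdhb18, with 0.61 TPM (69 counts) in replicate 1 and 0.28 TPM (34 counts) in replicate 2, a log2 ratio of 1.09. The ratio of its TPM, with 0.1 added, stays below 2-fold at a log2 of 0.90. No alpha gene reached 1 CPM. The deposited bounds did not overlap between the libraries for 4 of 57 members, against 13.9% of protein-coding genes. Those 4 were chosen for this after their values were seen: Pcdhb18, Pcdhga3 (2.93 and 1.83 TPM) and Pcdhgb7 (5.05 and 3.89 TPM) were higher in replicate 1, and Pcdhb12 (0.27 and 0.59 TPM) was lower.

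Small differences mostly ran one way in the gamma cluster. Of its 21 genes, 18 had the higher TMM-scaled count in replicate 1, against 47.5% of the 15362 genes, and the median log2 ratio was 0.27. With DESeq2 size factors 17 of 21 were higher, with library size alone 18, and by TPM 19. The exceptions under TMM were Pcdhgc4, Pcdhga9 and Pcdhgb2. The members share constant exons and their reads, so these are not independent counts. Among beta genes 9 were higher in replicate 1 and 12 in replicate 2, with 1 at 0 in both, and among alpha genes 9 and 4. Summed over a cluster and scaled to library size, the count ratio was 1.46 for alpha (95% interval 1.11 to 1.94), 1.01 for beta (0.945 to 1.07) and 1.11 for gamma (1.08 to 1.14). The marker ratios below are of TPM sums, a different measure. In TPM the sums in replicates 1 and 2 were 1.06 and 0.71 for alpha, 20.98 and 21.92 for beta, and 135 and 128 for gamma. Markers of neurons were also higher in replicate 1 (9 of 10, ratio of TPM sums 1.51), as were those of chromaffin cells (6 of 6, ratio 1.64) and of glia (5 of 7, ratio 1.23), with none of these 23 genes at 0 in both libraries. Nephron progenitor (4 of 6, ratio 1.08) and podocyte markers (4 of 6, ratio 1.03) were higher there too. Proximal tubule (0 of 5, ratio 0.865), stroma (2 of 6, ratio 0.925) and endothelium markers (2 of 5, ratio 0.973) ran the other way. Collecting duct markers were mixed (3 of 4, ratio 0.929). The part of any of these cell types in the gamma and alpha values was not tested. Between the pools, Spearman's rho of TPM within a cluster was 0.908 over 22 beta and 0.950 over 21 gamma genes. It was 0.863 over 14 alpha genes, whose order stays loose because their counts are few.

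**Figure D4:**
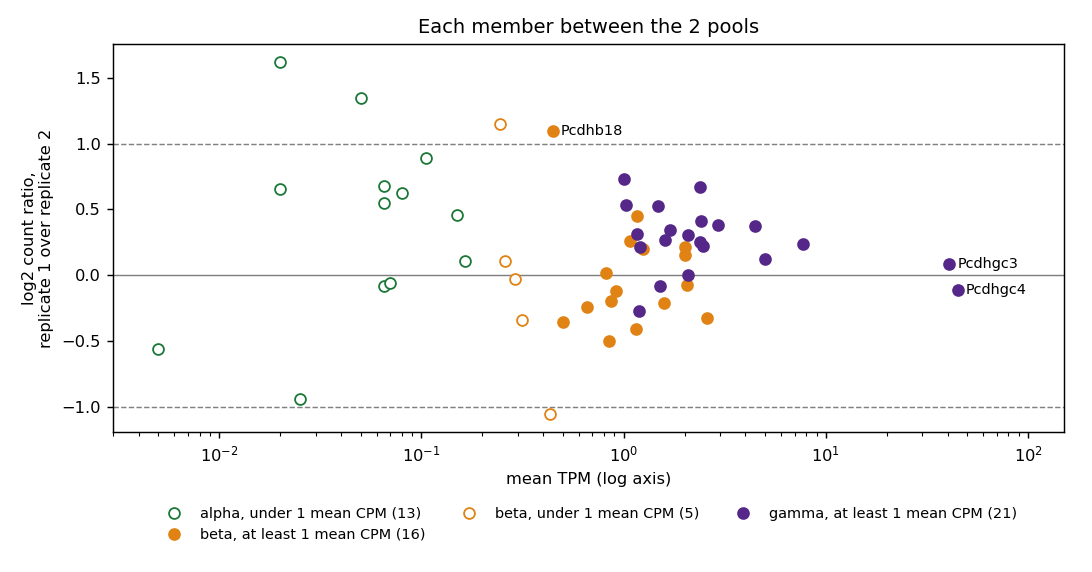
The vertical axis is the log2 ratio of TMM-scaled counts, replicate 1 over replicate 2, and the horizontal axis mean TPM on a log scale; filled points have a mean of at least 1 CPM, open points do not, and dashed lines mark 2-fold. Pcdhb18 is the only filled point past 2-fold, most gamma genes lie a little above 0, and Pcdhgc3 and Pcdhgc4 lie on either side of it.

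Genes known to act on these promoters were all detected. CTCF and cohesin bring distant enhancers to the chosen promoter in neurons, and DNA methylation and repressive chromatin keep other promoters silent. All 20 genes of this list reached 1 TPM in both libraries, against 62.2% of all protein-coding genes. Their median was 39.2 TPM in replicate 1 and 36.6 TPM in replicate 2, beside 5.43 and 5.46 TPM for all protein-coding genes. Trim28, a co-repressor that recruits histone methyltransferases, stood highest at 205 ± 3.13 TPM, the insulator protein gene Ctcf followed at 103 ± 8.06 TPM, and Rcor1, a partner of the repressor REST, was the lowest at 8.08 ± 0.0566 TPM. Whether the genes of this list act on these promoters in this tissue was not tested. The 17 genes for intracellular partners and proteases bind or cleave the cytoplasmic ends of these proteins, or stand in the pathways they meet. All 17 reached 1 TPM in both libraries, against the same 62.2%. Ctnnb1, which encodes beta-catenin, had 434 ± 17.2 TPM, Brk1, a subunit of the WAVE actin regulator, 185 ± 5.11 TPM, and the kinase gene Ptk2b 5.14 ± 0.742 TPM.

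Protocadherins outside the clusters, which have their own separate loci, were mixed. Of 13 such genes 10 reached 1 TPM in both libraries, against 62.2% of all protein-coding genes. The 13 summed to 95.6 TPM in replicate 1 and 88.1 TPM in replicate 2. Pcdh18 led with 38.9 ± 0.0707 TPM, followed by Pcdh9 with 15.5 ± 1.76 TPM, and Pcdh20 was lowest with 0.275 ± 0.0495 TPM. Pcdhgc3, at 40.7 ± 1.22 TPM, stood within a few TPM of Pcdh18.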

How the data were processed

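Total RNA of each pool (10 ng per library, fragments above 200 nt, spike-ins added) was prepared with a mirVana kit, per the labels. The text notes among the deposited files name mm10 and the M4 annotation. The sources used here name no aligner, quantifier or strand setting. A member and an antisense neighbour therefore cannot be told apart where exons overlap. The authors deposited, per gene and transcript, expected counts (estimated counts that need not be whole), TPM, FPKM, posterior mean TPM, the lower and upper TPM bounds (a signal never below 0), a posterior standard deviation of the count (treated as a score in counts) and, per the file headers, the percent of each transcript within its gene.

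Identifiers without their version were matched to GENCODE M21 (GRCm38) for names and exons. All 87 member transcripts have the same length there as in the files. Windows of 100 nt were compared over all M21 transcripts, in the sense direction only. For the pools, expected counts of mouse genes were rounded, TMM-scaled in edgeR 4.0.16 (R 4.3.3) and given a prior count of 2, with genes of at least 1 mean CPM kept; the code was tested on simulated data. DESeq2 1.42.0 size factors were an alternative. Tables were made with Python 3.11.15, pandas 2.3.3, numpy 2.4.6 and scipy 1.17.1, and figures with matplotlib 3.10.9. Intervals of count ratios are exact 95% binomial (Clopper-Pearson) intervals, which treat expected counts as whole. There is 1 group, so no condition is compared.

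The members, gene lists and alternatives were chosen with earlier results of these data known. Genes given with full values are, per cluster, the 4 highest and 2 lowest by mean TPM, the 5 C-type genes, and members past 2-fold between the pools. Of other lists these are the 2 highest and the lowest. Up to 6 members whose leading transcript differs are named, as is every protein-coding non-member inside the locus.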

Additional observations from a re-analysis of the deposited data

How the results depend on the processing

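Of 103 alternative values over 15 summaries, 71 moved by less than the spread between the libraries (counts by less than 1.5 times) and none turned its direction. Part of this tally was fixed in advance, so it does not measure robustness. With 2 libraries, leaving 1 out always moves their mean by less than their SD. Counts, widths and percents cannot turn direction, and dropping gamma genes cannot change alpha over beta. Leaving out either library kept the order alpha, beta, gamma: log2 of the sums ranged from -4.95 to -4.31 for alpha over beta, -7.50 to -6.99 for alpha over gamma and -2.68 to -2.55 for beta over gamma. Median levels ranged from -2.81 to -2.24, -3.74 to -3.72 and -1.50 to -0.91.

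Detected counts depend on the threshold. At 0.5 TPM 14 beta genes passed, at 10 expected counts 2 alpha and 21 beta genes, at a lower bound of 0.1 TPM 20 beta genes, and at 1 FPKM 12 gamma genes. Without the transcripts of under 300 own bases, an alternative chosen after seeing the data, 19 gamma genes reached 1 TPM in both libraries. The log2 ratio of sums, alpha over gamma, was -6.83 by posterior mean TPM, -6.77 by expected counts, -6.09 without the C-type genes, -6.71 without the transcripts of under 300 own bases and -5.72 without Pcdhgc3 and Pcdhgc4. Beta over gamma was -1.06, -2.08 and -1.09 in the last 3 of these. The last 2 were chosen after seeing the data.

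With a pseudocount of 1 the median levels differed by -0.80 (alpha minus beta), -1.54 (alpha minus gamma) and -0.73 (beta minus gamma), and with 0.01 by -3.53 and -4.81 for alpha. Among genes of at least 0.1 TPM the alpha differences were -1.91 and -3.09. Alpha minus gamma was -3.71 by posterior mean TPM and -4.19 by the mean of members, which gave -1.76 for beta minus gamma. The relative width of the alpha bounds was 1.61 with no filter, 0.764 against the upper bound and 0.992 for leading transcripts. For beta it was 0.382 at a posterior mean of 0.5 TPM, a level no alpha gene reached, and 0.365 against the upper bound, and for gamma 0.278 against the upper bound and 0.428 for leading transcripts. Past 2-fold between the pools were 5 members with no filter on low counts and 0 by TPM.

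No paired analysis was possible because there is 1 group. With 2 libraries, differences between the pools have no replicate check. Depth limits the alpha genes, none of which has over 23 counts in either library, and the read division within shared exons limits single alpha and gamma genes.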

Other observations

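Other genes lie inside the protocadherin locus. Taf7, a subunit of the general transcription factor TFIID, sits on the minus strand between the beta and gamma clusters (chr18:37640491-37644204) and stood at 14.0 TPM in replicate 1 and 14.7 TPM in replicate 2. Its neighbour Slc25a2, a mitochondrial carrier gene, had 0.14 and 0.22 TPM. The protein-coding models Gm42416, Gm37013 and Gm37388 start in the alpha cluster and end in the gamma constant exons, and their exons overlap those of Pcdha4, Pcdha6 and Pcdha7 as well as the gamma constant exons. Gm42416 had 0.07 TPM in replicate 1 and 0.02 TPM in replicate 2, and both others are listed at 0 counts in both libraries.

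Minus-strand entries overlap exons of members in 9 cases. BC037039, opposite the variable exon of Pcdhgc3, was the highest of them with 2.66 and 3.13 TPM. Gm10544, in the alpha cluster, had 1.96 and 1.56 TPM, above the sum of all 14 alpha genes in each library (1.06 and 0.71 TPM). It overlaps an exon of the downstream Pcdha11. Gm26672, opposite the exons of 4 gamma genes from Pcdhga10 to Pcdhga12, had 1.16 and 0.95 TPM.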
